A study of Sus scrofa with 4 samples.

Results

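The genes described here are 4 maternal-effect and oocyte factors, H1FOO, NPM2, ZAR1 and NOBOX, together with the receptor KIT. They were chosen by name, and all 5 were found among the 4381 gene symbols of the counts table. RNA was sequenced from porcine oocytes at the M II (metaphase II) stage in 4 libraries. Control oocytes gave 2 libraries, and SIRT6-inhibited oocytes gave 2 libraries. Ovaries came from an abattoir, and oocytes of both groups were matured in vitro as cumulus-oocyte complexes for 42 to 44 h. In the inhibited group the maturation medium held 100 μM SIRT6-IN-1, which enters cells and inhibits the deacetylase SIRT6. The methods of the study give 100 oocytes per group and do not say how many entered each library.

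A mammalian oocyte at metaphase II is transcriptionally silent and lives on transcripts that were made and stored during its growth. Maternal-effect genes act in the oocyte but are needed after fertilization, when their stored products reorganize sperm chromatin, control the use of stored mRNA and carry the embryo to the start of its own transcription. H1FOO is the oocyte-specific linker histone and NPM2 (nucleoplasmin) is a histone chaperone of the oocyte nucleus. ZAR1 is an RNA-binding protein of the stored mRNA, NOBOX is a homeobox transcription factor of the follicle-stage oocyte, and KIT is the receptor through which the growing oocyte receives KIT ligand from granulosa cells.

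Summed over the listed genes, control library 1 held 4646129 counts and control library 2 held 3405960, while SIRT6-inhibited library 1 held 3239200 and SIRT6-inhibited library 2 held 4972602. Levels are given as normalized CPM, the counts per 1000000 of the library total after scaling with edgeR's TMM factors. A level of 3 counts, the smallest taken as distinct from 0, was between 0.603 and 0.926 CPM of the library total before that scaling. Every library had each of the 5 genes well above that floor, and all 5 were among the 2387 genes tested. The intervals of shares and the floors describe counting error alone, since reads copied by amplification do not stand for separate molecules. No source says that the libraries of a group came from separate animals or cultures, so p-values measure the spread between these samples, which may be technical. Bulk libraries cannot tell less RNA per oocyte from fewer oocytes with the RNA.

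None of the 5 genes passed the test, and in none did the control and SIRT6-inhibited libraries separate. Of all 2387 genes, edgeR's quasi-likelihood test called 0 (0%) at an adjusted p-value under 0.05, DESeq2's Wald test 37 and limma-voom 0. The unadjusted p-value in edgeR was under 0.05 for 216 genes (9.05%), which included 0 of the 5. The common biological coefficient of variation between libraries of a group was 0.651, and at such a spread a count of 0 does not show that no transcript differed. Gene by gene, the 5 had lower values, from 0.114 for H1FOO to 0.511 for ZAR1. What a count of 0 says about large changes thus depends on the spread assumed. Of the tested genes, 1261 had a log2 fold change below 0 and 1126 above 0. Both SIRT6-inhibited libraries lay below both controls in 22.2% of the tested genes and above both in 17.9%, against 0 of the 5 in either direction. With 2 libraries in each group, the smallest p-value of an exact permutation test is 0.333, and none was run.

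**Figure D1:**
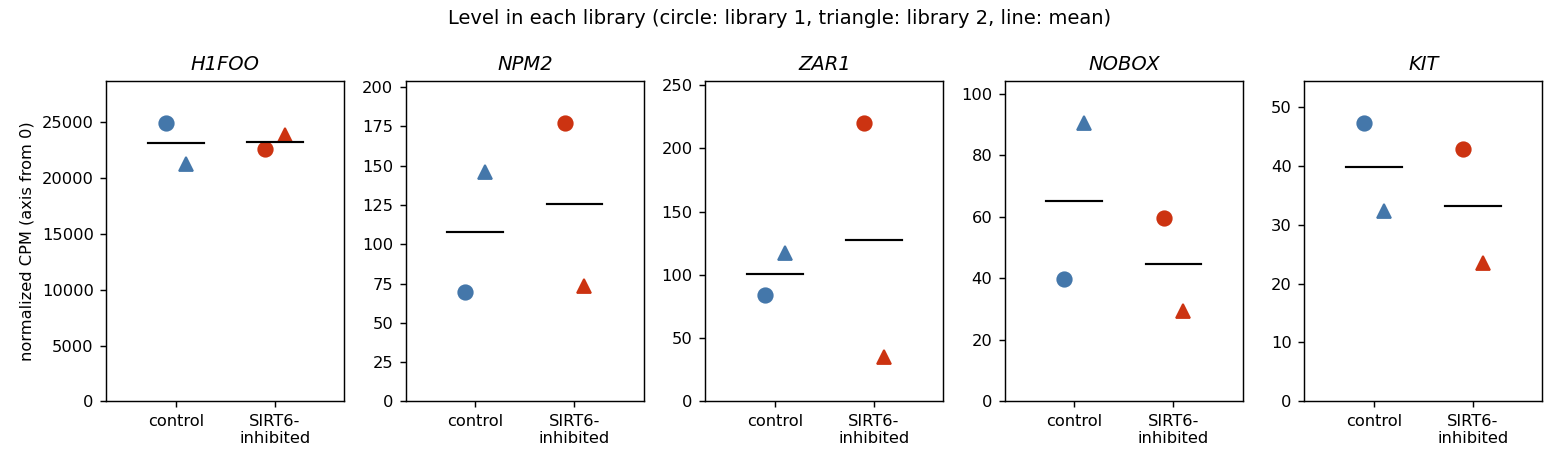
Normalized CPM of H1FOO, NPM2, ZAR1, NOBOX and KIT in each library, on linear axes from 0 that differ between panels. Circles are library 1, triangles library 2 and lines the mean of the 2 libraries of a group. The groups overlap in every panel, and the SIRT6-inhibited libraries of ZAR1 lie on either side of both controls, at 220 and 35.4.

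H1FOO had control counts of 115723 and 75634, and counts of 72830 and 114883 after inhibition. After normalization these were 24971 and 21278 CPM in controls and 22613 and 23912 CPM in SIRT6-inhibited oocytes. Both SIRT6-inhibited libraries thus lay between the controls. The gene took 2.49% (95% exact interval 2.48 to 2.50) and 2.22% (2.21 to 2.24) of the counts of the control libraries, and 2.25% (2.23 to 2.26) and 2.31% (2.30 to 2.32) of the SIRT6-inhibited ones. By read count, which also depends on transcript length, it ranked 4 in every library. The mean was 23125 ± 2611 CPM (SD, n = 2) in controls and 23263 ± 919 CPM (SD, n = 2) in SIRT6-inhibited oocytes. This gave a log2 fold change of 0.0086 (SE 0.0987), with an adjusted p of 0.994 in edgeR's quasi-likelihood test. The 95% interval ran from a fold of 0.854 to a fold of 1.18, and larger shifts of this linker histone transcript lay outside it. The sign of so small a value was not fixed. It was -0.048 with library totals only, -0.11 without control library 2 and -0.03 without SIRT6-inhibited library 2.

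NPM2 binds histones and helps to open sperm chromatin after fertilization. Controls had 324 and 520 counts of it and SIRT6-inhibited oocytes 571 and 353, or 69.9 and 146 CPM against 177 and 73.5 CPM. Each group held a low and a high library, and the low libraries of the groups lay close together, as did the high ones. Group means were 108 ± 54.0 CPM (SD, n = 2) in controls and 125 ± 73.4 CPM (SD, n = 2) after inhibition. The log2 fold change was 0.21 (SE 0.512, adjusted p = 0.988 in edgeR's quasi-likelihood test), and its 95% interval ran from a fold of 0.496 to a fold of 2.71. The direction turned without control library 1, to -0.23, and without SIRT6-inhibited library 1, to -0.56.

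ZAR1 takes part in storing maternal mRNA and in the passage from egg to embryo. It was counted 388 and 417 times in controls, and 709 and 170 times after inhibition, or 83.7 and 117 CPM against 220 and 35.4 CPM. The highest and the lowest of the 4 values were therefore both from SIRT6-inhibited oocytes. The mean was 101 ± 23.8 CPM (SD, n = 2) in controls and 128 ± 131 CPM (SD, n = 2) after inhibition. In edgeR's quasi-likelihood test the log2 fold change was 0.34 (SE 0.737, adjusted p = 0.984), with a 95% interval from a fold of 0.374 to a fold of 4.30. A single library set its direction. Without SIRT6-inhibited library 1 the log2 fold change was -1.51, and without SIRT6-inhibited library 2 it was 1.13. Those left-out fits gave the lowest adjusted p-values for ZAR1 in edgeR's test, 0.0630 and 0.0763, in a range up to 1.00 over the alternatives. In each of them the lone SIRT6-inhibited library was assumed to vary like the controls, and edgeR gave each gene the spread typical of its level (2586 and 2561 degrees of freedom, against 6.64 with all libraries), so the spread of ZAR1 itself did not enter and these p-values may be too small. The value was also below 0 with limma-voom (-0.38) and with the replicate number as a block (-0.15).

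NOBOX acts upstream of many oocyte genes in growing follicles. Its counts in controls were 185 and 322 and those in SIRT6-inhibited oocytes 192 and 142, or 39.9 and 90.6 CPM against 59.6 and 29.6 CPM. Control library 2 was highest and SIRT6-inhibited library 2 lowest, with the remaining libraries between them in reversed group order. Means were 65.3 ± 35.8 CPM (SD, n = 2) in controls and 44.6 ± 21.3 CPM (SD, n = 2) in SIRT6-inhibited oocytes. The log2 fold change, -0.55 (SE 0.561, adjusted p = 0.939 in edgeR's quasi-likelihood test), was the farthest from 0 of the 5 genes. Its 95% interval ran from a fold of 0.269 to a fold of 1.73, and without control library 2 the value was 0.15.

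KIT, the receptor tyrosine kinase, was counted 219 and 115 times in controls and 138 and 113 times in SIRT6-inhibited oocytes. These were 47.3 and 32.4 CPM in controls and 42.8 and 23.5 CPM after inhibition. In each group library 1 was the higher, and the groups overlapped. Means were 39.8 ± 10.5 CPM (SD, n = 2) and 33.2 ± 13.7 CPM (SD, n = 2). The log2 fold change was -0.27 (SE 0.557, adjusted p = 0.984 in edgeR's quasi-likelihood test), with a 95% interval from a fold of 0.330 to a fold of 2.09. It was 0.03 without control library 1 and 0.10 without SIRT6-inhibited library 2.

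**Figure D2:**
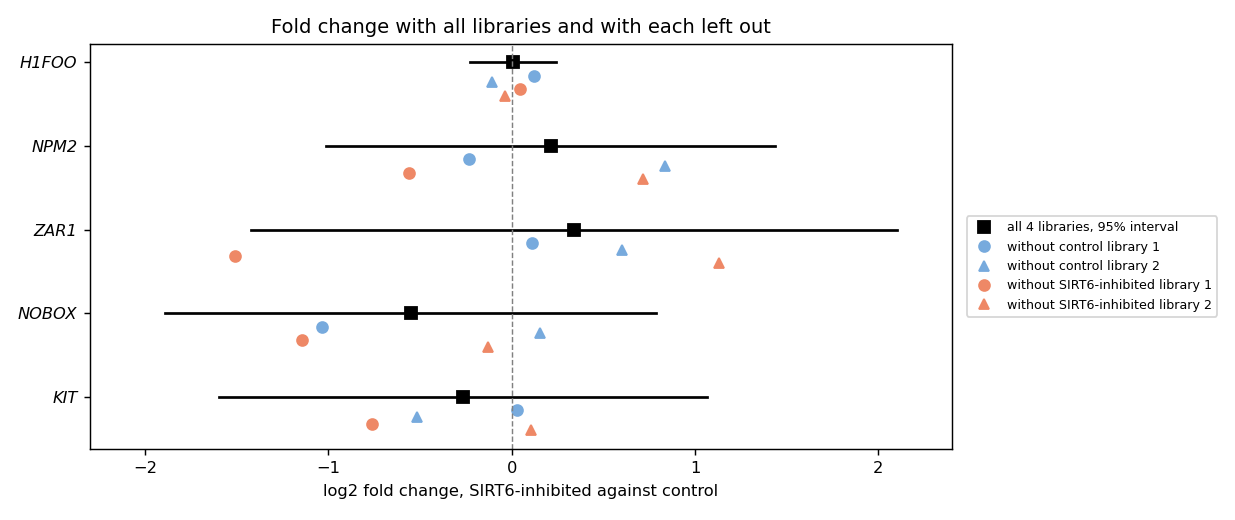
Log2 fold change of the 5 genes, SIRT6-inhibited against control. Squares and lines are the fit to all 4 libraries with its 95% interval, and the smaller symbols are the same fit with a library left out. All 5 intervals include 0, the narrowest is that of H1FOO, and ZAR1 runs from -1.51 to 1.13 depending on which SIRT6-inhibited library is left out.

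The intervals differed in width. For an unadjusted p-value of 0.05 at the standard errors found, H1FOO would have needed a fold of 1.18, NPM2 of 2.33, KIT of 2.52, NOBOX of 2.53 and ZAR1 of 3.39. These folds are for a p-value before adjustment, and an adjusted p-value under 0.05 would need larger ones.

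Libraries of the same group differed least in H1FOO among the 5 genes. The higher library of a group exceeded the lower by a ratio of 1.17 in controls and 1.06 in SIRT6-inhibited oocytes for H1FOO. For NPM2 the ratios were 2.09 and 2.41, and for NOBOX 2.27 and 2.02, and on the log2 scale these differences were larger than those of 78.4% and 77.8% of the tested genes for NPM2, and of 80.9% and 71.9% for NOBOX. For ZAR1 they were 1.40 and 6.22, and for KIT 1.46 and 1.82. On the log2 scale with a pseudocount of 2 CPM, the ZAR1 difference between the SIRT6-inhibited libraries was 2.57, larger than that of 95.2% of the tested genes, against a median of 0.42. Between the controls it was 0.48, larger than that of 56.3% of genes and close to the median of 0.38. Whether the spread of ZAR1 differs between the groups was not tested, since each group has a single difference.

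**Figure D3:**
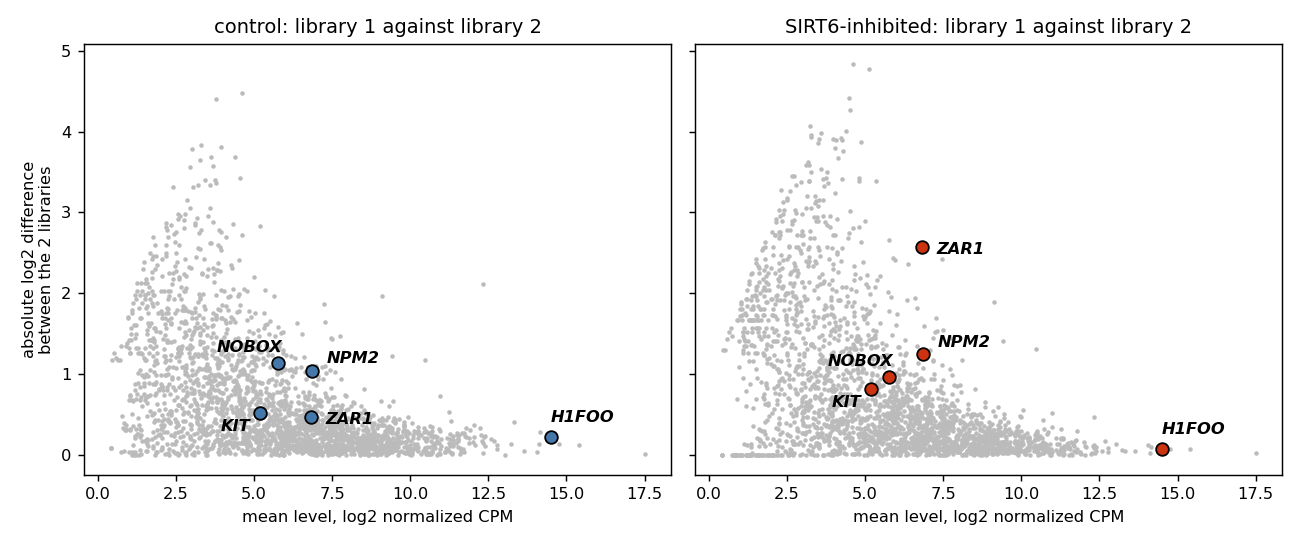
Absolute log2 difference between the 2 libraries of a group against mean level (log2 normalized CPM), controls at left and SIRT6-inhibited oocytes at right, with each tested gene as a grey point. ZAR1 lies among the other genes in controls, at 0.48, and above 95.2% of the tested genes in SIRT6-inhibited oocytes, at 2.57.

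Reads can also be set against those of H1FOO in the same library, which uses H1FOO in place of the library total. Per 1000 H1FOO reads controls had 2.80 and 6.88 NPM2 reads, and SIRT6-inhibited oocytes had 7.84 and 3.07. For ZAR1 the numbers were 3.35 and 5.51 against 9.74 and 1.48, and for NOBOX 1.60 and 4.26 against 2.64 and 1.24. KIT had 1.89 and 1.52 reads against 1.89 and 0.984. The order of the libraries within each of these genes was as in normalized CPM, apart from KIT, where control library 1 and SIRT6-inhibited library 1 were level.

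NPM2, ZAR1 and NOBOX were each higher in control library 2 than in control library 1 and higher in SIRT6-inhibited library 1 than in SIRT6-inhibited library 2. Their higher libraries were those with the lower totals, 3405960 and 3239200 counts, and the part of depth in these levels was not tested. H1FOO had the opposite order in both groups, and KIT was higher in library 1 of each. Likeness was measured as a Euclidean distance over the 4 log2 values, each gene centred on its own mean, which depends on the size of the differences between libraries as well as on their order. By this distance NPM2 and NOBOX lay 0.703 apart and H1FOO and KIT, which differ in order, 0.727. NPM2 and ZAR1 lay 1.07 apart, NOBOX and KIT 1.2, ZAR1 and NOBOX 1.28, and H1FOO and ZAR1 1.95. The candidates were the 1839 other genes whose count was 10 or more in each library, and the 3 nearest to H1FOO were CTNNB1 (0.0216), UBB (0.0314) and TOMM7 (0.0354). Nearest to NPM2 were RPL30 (0.159), CDIP1 (0.170) and ESR2 (0.209). RPL30 had 82.4 and 177 CPM in controls and 238 and 86.0 CPM in SIRT6-inhibited oocytes, the low and high libraries of NPM2. ZAR1 had no neighbour as close: its nearest were TMEM38B (0.386), LIAS (0.472) and LOC100627175 (0.480). For NOBOX they were CLDN10 (0.136), HAUS1 (0.214) and GJA10 (0.237), and for KIT they were CALCR (0.135), PNCK (0.190) and LOC396905 (0.193). With 4 libraries such likeness is a description only.

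In RefSeq's annotation of Sscrofa11.1 (susScr11), H1FOO lies at chr13:68921491-68943061, NPM2 at chr14:6288422-6303750 and NOBOX at chr9:113348363-113354504. ZAR1 at chr8:38386520-38391618 and KIT at chr8:41402334-41492306 share a chromosome and are 3.01 Mb apart. Their distance over the log2 values was 1.43.

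Genes that work beside H1FOO and NPM2 were taken from a list of linker histones, histone chaperones and histone variants, of which 6 of 38 were in the table and tested, none of them a linker histone. Of these, 3 were lower and 3 higher, and 0 passed adjustment in edgeR's test. Against 9.05% of all tested genes, the unadjusted p-value was under 0.05 for 1 lower gene of the 6. That gene was SET, a histone chaperone and phosphatase inhibitor, with 1742 and 2149 CPM in controls and 1331 and 1422 CPM after inhibition. Both SIRT6-inhibited libraries lay below both controls, and the log2 fold change was -0.50 (SE 0.135, adjusted p = 0.460 in edgeR's test). SET passed adjustment in 2 of 13 alternatives. These were DESeq2's Wald test (adjusted p = 0.0294) and edgeR's test with no filter (adjusted p = 0.0282), a fit that took the spread almost wholly from other genes. ASF1B, a chaperone of newly made H3 and H4 and the list's gene with the most reads, had 1662 ± 82.2 CPM (SD, n = 2) in controls and 1758 ± 134 CPM (SD, n = 2) after inhibition. The list's median log2 fold change was -0.15, against -0.04 over all tested genes, and it was 0.15 without control library 1 and 0.013 without SIRT6-inhibited library 1.

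Of 14 oocyte transcription factors, the class to which NOBOX belongs, 6 were tested, with 4 lower, 2 higher and a median of -0.03, which was 0.16 without control library 2 and 0.19 without SIRT6-inhibited library 2, but -0.16 without control library 1 and -0.26 without SIRT6-inhibited library 1. POU5F1, the pluripotency factor OCT4, had 984 and 867 CPM in controls and 1238 and 1101 CPM in SIRT6-inhibited oocytes. Its libraries did not overlap, and its log2 fold change was 0.34 (SE 0.130, adjusted p = 0.529 in edgeR's test). Both SIRT6-inhibited libraries lay above both controls in 2 genes of the list, POU5F1 and STAT3, against 17.9% of all tested genes. They lay below in 2, LHX8 (log2 fold change -0.58) and NR6A1 (-0.11), against 22.2%. STAT3, with the most reads of the list, had 2378 ± 36.0 CPM (SD, n = 2) and 2786 ± 272 CPM (SD, n = 2). Of 9 genes whose transcripts are lowered in mouse ovaries without Nobox, 7 were tested, ZAR1 and H1FOO among them. In this list 2 were lower and 5 higher, with a median of 0.05, or -0.013 with library totals only. The median was 0.11 without control library 2, 0.027 without SIRT6-inhibited library 2 and 0.16 without the 10 genes with the most reads. Against 9.05% of all tested genes, the unadjusted p-value in edgeR was under 0.05 for 1 higher gene, POU5F1, and for 1 lower gene, GDF9, an oocyte-secreted growth factor. GDF9 had 1322 and 2986 CPM in controls against 977 and 393 CPM (log2 fold change -1.65, SE 0.50, adjusted p = 0.469 in edgeR's test). Its log2 fold change was -0.95 without control library 2 and -2.46 without SIRT6-inhibited library 1. With the replicate number as a block the adjusted p in edgeR was 0.00397. It was 0.00394 in edgeR with a crossed block, added after seeing the data, and 0.510 in DESeq2's Wald test. Nothing in the sources pairs the libraries either way, so neither block gives a sound call. The lowest value, 6.71e-26 in edgeR with no filter, is not reliable. That fit took the spread almost wholly from other genes and not from GDF9, whose control libraries differ widely. The same holds for the fits without a SIRT6-inhibited library. The replicate block fit also drew more on other genes than the main fit (31.6 degrees of freedom against 6.64).

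Maternal mRNA storage and clearance, the setting of ZAR1, was represented by 6 tested genes of 43, with 4 lower and 2 higher and a median of -0.30. The direction of this median rested on single libraries: it was 0.12 without control library 2 and 0.060 without SIRT6-inhibited library 2, but -0.59 without control library 1 and -0.53 without SIRT6-inhibited library 1. CPEB2, which binds cytoplasmic polyadenylation elements, had 85.9 and 92.6 CPM in controls and 30.1 and 58.5 CPM after inhibition, without overlap (log2 fold change -1.0, SE 0.407, adjusted p = 0.534 in edgeR's test). Its log2 fold change was -0.61 without SIRT6-inhibited library 1 and -1.57 without SIRT6-inhibited library 2. In DESeq2's Wald test its unadjusted p-value was 0.0713. CPEB1, the related regulator of polyadenylation in the maturing oocyte, had 118 and 256 CPM against 127 and 121 CPM, which overlap. CNOT2, a subunit of the CCR4-NOT deadenylase complex, had 158 ± 5.09 CPM (SD, n = 2) and 176 ± 52.1 CPM (SD, n = 2). Of 37 other maternal-effect genes, 15 were in the table and 13 tested, with 6 lower, 7 higher and a median of 0.07, which was -0.07 without control library 1 and -0.09 without the 10 genes with the most reads. In edgeR's test the unadjusted p-value was under 0.05 for 0 of the 13, against 9.05% of all tested genes. At that share a count of 0 in so short a list says little. The maintenance methyltransferase DNMT1, with the most reads, had 179530 ± 1734 CPM (SD, n = 2) in controls and 192423 ± 2455 CPM (SD, n = 2) after inhibition, and the nuclear import receptor KPNA7 had 26899 ± 1755 CPM (SD, n = 2) and 28240 ± 998 CPM (SD, n = 2).

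For KIT, the list of its ligand and signalling partners held 46 genes, of which 20 were in the table and 19 tested. Of these, 6 were lower and 13 higher, against 1261 lower and 1126 higher among all tested genes. The list's median was 0.12, which was -0.02 without control library 1 and 0.35 without control library 2. Both SIRT6-inhibited libraries lay above both controls in 6 of the 19, against 17.9% of all tested genes. They lay below both in 2, against 22.2%. KITLG, the ligand itself, had 126 and 79.6 CPM in controls and 77.9 and 96.6 CPM after inhibition, so the groups overlapped (log2 fold change -0.24, SE 0.335, adjusted p = 0.977 in edgeR's test). SOCS1, a suppressor of cytokine receptor signalling, had 370 and 441 CPM in controls and 630 and 565 CPM in SIRT6-inhibited oocytes. It was the 1 gene of the 19 with an unadjusted p-value under 0.05, against 9.05% of all tested genes (log2 fold change 0.56, SE 0.158, adjusted p = 0.460 in edgeR's test). MAP2K1, the kinase that activates ERK, had the most reads, at 2766 ± 337 CPM (SD, n = 2) and 2969 ± 127 CPM (SD, n = 2).

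**Figure D4:**
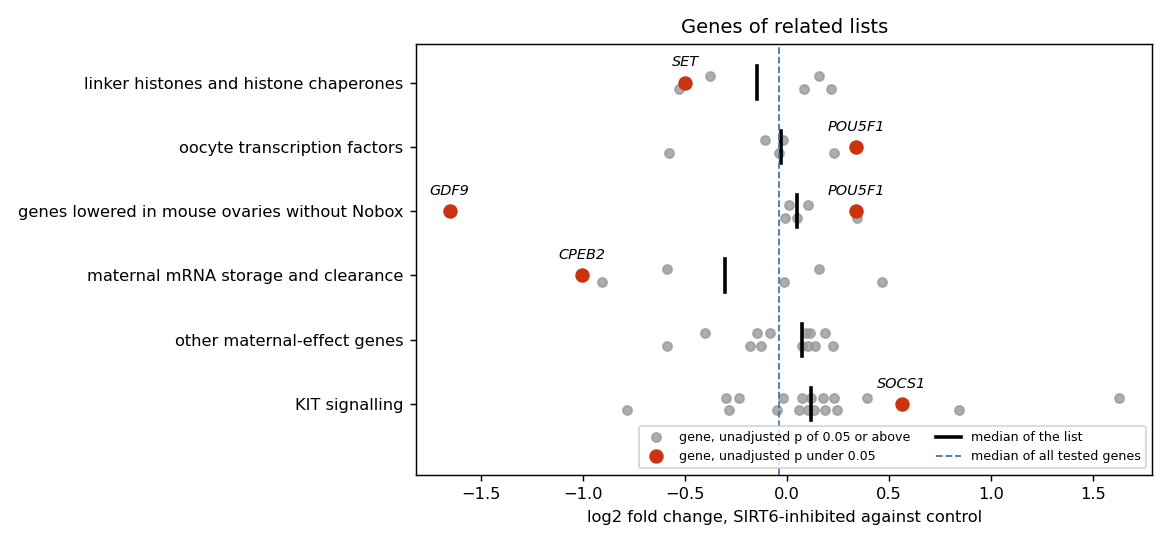
Log2 fold change, SIRT6-inhibited against control, of each tested gene in 6 lists related to the 5 genes. Red points are under 0.05 by edgeR's unadjusted p-value, black bars are list medians and the dashed line is the median of all tested genes, -0.04. No gene shown passed adjustment in edgeR's test with TMM scaling, the filter on low counts and no block.

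The samples were checked for the cells they hold. All 8 of the oocyte markers in the table were detected in every library, with a summed level of 66049 and 73349 CPM of the library total in controls and 71822 and 71295 CPM in SIRT6-inhibited oocytes. Most reads fell on WEE2, an oocyte kinase that holds meiotic arrest. Of the 8, 5 were lower and 3 higher, with a median log2 fold change of -0.02, which ranged from -0.37 without SIRT6-inhibited library 1 to 0.09 without control library 2. The unadjusted p-value in edgeR was under 0.05 for 2 lower genes, GDF9 (described above) and ZP2, and for 1 higher gene, WEE2, against 9.05% of all tested genes. ZP3, named after its values were seen, had 908 ± 518 CPM (SD, n = 2) in controls and 443 ± 285 CPM (SD, n = 2) after inhibition, with overlap, and BMP15, an oocyte-secreted growth factor, had 17774 ± 2491 CPM (SD, n = 2) and 18387 ± 890 CPM (SD, n = 2). ZP2, a zona pellucida protein, had 4017 ± 438 CPM (SD, n = 2) against 3100 ± 448 CPM (SD, n = 2), and WEE2 had 39874 ± 2488 CPM (SD, n = 2) against 46924 ± 1763 CPM (SD, n = 2), neither past adjustment in edgeR's test (WEE2 passed in DESeq2's, adjusted p = 0.0200, in a range up to 0.950 over the alternatives).

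Cumulus and granulosa cells surround the oocyte and make KIT ligand. Of 26 of their markers 22 were in the table, and their summed level was 344 and 321 CPM of the library total in controls and 178 and 302 CPM in SIRT6-inhibited libraries 1 and 2. FSHR, LHCGR, AMH, AMHR2, TNFAIP6 and KRT8 were at 0 in all 4 libraries. VCAN, the marker with the most reads, had 383 and 485 counts in controls and 125 and 683 after inhibition, and KITLG came next. The library with the lowest sum, SIRT6-inhibited library 1, was also the library with the most ZAR1 and NPM2. Any part of these cells in the levels of the 5 genes was not tested. Of the 10 tested cumulus and granulosa markers, 8 were lower and 2 higher, against 1261 lower and 1126 higher among all tested genes. The median log2 fold change of the 10 was -0.71. In edgeR's test 0 were past an unadjusted p-value of 0.05, against 9.05% of all tested genes. Without SIRT6-inhibited library 2 the median was -1.50, and with at least 10 counts in every library it was -0.43. Among the tested markers, PTGS2, NR5A2, GJA1, CYP11A1 and STAR had mean levels of only 2.03 to 4.77 CPM. Each of them was at 0 in at least 1 library. Of 15 markers of stroma, blood and endothelium, 12 were in the table and 7 of these were at 0 in all libraries. Their sum was 48.2 and 77.8 CPM of the library total in controls and 39.2 and 37.8 CPM after inhibition, with the most reads on PECAM1. Of the 3 tested 2 were lower and 1 higher, with a median of -0.09, which was -1.70 without SIRT6-inhibited library 1 and 0.05 without SIRT6-inhibited library 2. The 3 had mean levels of 11.7 to 22.3 CPM. The filter was applied anew in each fit, so the genes behind these medians could differ. With so few genes, no direction can be read from them. PDGFRA, a receptor of stromal cells named after its values were seen, had 64 and 109 counts in controls and 0 and 12 after inhibition. COL1A2, a collagen chain, had 14.1 ± 4.10 CPM (SD, n = 2) and 15.5 ± 0.0862 CPM (SD, n = 2).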

How the data were processed

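RNA of porcine M II oocytes was sequenced with paired-end reads of 150 bp. The deposited values are whole-number read counts, with a row for each gene symbol and a column for each library, and were not normalized. The submitters' processing notes name TopHat2 2.0.13, Cufflinks 2.2.1, Cuffnorm, Cuffdiff and the builds mm10 and susScr11, with no role stated, and the counting tool, annotation and strand setting are not given in the sources used here. The methods describe column extraction, RNA fragmentation and reverse transcription from random primers with a NEBNext kit. The labels name that kit as well as Smart-seq2 amplification, which primes on poly(A) tails, so how the RNA was primed is unclear. Tail length was not measured. Of the symbols, 4299 (98.1%) matched porcine RefSeq. The table lists part of the gene catalogue, so library totals cover listed genes only, and 1458 symbols had 0 counts in all libraries. Columns were matched to samples by the group and number in their names.

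Counts were analysed in R 4.3.3 using DESeq2 1.42.0, limma 3.58.1 and edgeR 4.0.16. Genes were kept by filterByExpr (minimum count 10, minimum total 15), scaled by TMM and tested by quasi-likelihood in edgeR, and p-values were adjusted over 2387 genes by the method of Benjamini and Hochberg. A standard error is the size of the log2 fold change divided by the square root of F. Shares have exact (Clopper-Pearson) 95% intervals.

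The members and the 9 lists were chosen with earlier results of these data known. Named genes are the members, list genes with an unadjusted p-value under 0.05, the 2 most abundant genes of each list, family members, defining cell type markers and the 3 genes at the smallest distance. A few others are named after their values were seen. Other linker histones, NPM1, NPM3 and ZAR1L were not analysed here. Levels of different genes were to be compared per coding length, but lengths were not used here, so ranks and the choice of abundant genes go by read counts, in which transcript length enters. Alternatives were RLE, no scaling beyond library totals, removal of the 10 most abundant genes, a minimum of 10 counts in every library, no filter, a replicate block, DESeq2, limma-voom and leaving out each library. Fits of list genes under these settings and a crossed block were added after seeing the data.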

Additional observations from a re-analysis of the deposited data

How the results depend on the processing

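None of the 5 genes had an adjusted p-value under 0.05 in any alternative run, 12 for H1FOO, which is itself among the 10 most abundant genes, and 13 for each of the others. The lowest adjusted p-values over edgeR, limma-voom and DESeq2 fits were 0.898 for H1FOO, 0.443 for NPM2, 0.0630 for ZAR1, 0.421 for NOBOX and 0.764 for KIT. Leaving out a library moved the log2 fold change of H1FOO between -0.11 and 0.12, of NPM2 between -0.56 and 0.84, of ZAR1 between -1.51 and 1.13, of NOBOX between -1.14 and 0.15 and of KIT between -0.76 and 0.10, so all 5 changed direction. In the other settings direction changed for H1FOO with library totals only (-0.048) and for ZAR1 with limma-voom (-0.38), the replicate block (-0.15) and the crossed block (-0.15). The cause was not tested.

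edgeR called 0 genes at an adjusted p-value under 0.05, and this count was 43 without a filter, 2 with at least 10 counts in every library and 37 with DESeq2. It lay between 0 and 77 when a library was left out, with 1 without control library 2, 77 without SIRT6-inhibited library 1 and 25 without SIRT6-inhibited library 2. In the fits giving 43, 77 and 25, edgeR took the spread of a gene almost wholly from other genes of its level (5846, 2586 and 2561 degrees of freedom against 6.64), so their p-values may be too small. The unadjusted count, 216, lay between 111 and 302. Nothing in the sources pairs libraries of the same number, and their deviations from the group means had a correlation of -0.13 across genes. A block for the replicate number let 6 genes pass adjustment, and a crossed block, added after seeing the data, let 2 pass, and no call on the 5 genes changed.

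Of the list genes with an unadjusted p-value under 0.05, GDF9 passed adjustment in 5 of 13 alternatives and SET in 2 of 13. WEE2 passed in 1 of 12, and POU5F1, CPEB2, SOCS1 and ZP2 in 0. GDF9 passed with no filter (log2 fold change -1.66) and without SIRT6-inhibited library 1 (-2.46) or library 2 (-1.14). Those fits took the spread almost wholly from other genes, so these passes are not reliable. GDF9 also passed with the replicate and crossed blocks (-1.68 in each), but nothing in the sources pairs the libraries either way. SET passed with no filter and with DESeq2, and WEE2 with DESeq2. None of these list genes with an unadjusted p-value under 0.05 changed direction in the alternatives. List medians moved by less than the spread between libraries in 102 of their fits and by more in 14, most of these with a library left out, and counts at an unadjusted p-value under 0.05 stayed within 1.5 times in 83 and not in 33. The values of NPM2, ZAR1, NOBOX and KIT rest on 113 to 709 counts in a library, against at least 72830 for H1FOO.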
